A study of Drosophila melanogaster with 23 samples.

Results

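The comparison is between brains of 30-day-old and 5-day-old female flies of the strain Canton-S, a wild-type laboratory strain. It took 6 of the 23 libraries of the series, 3 from each age, and used all genes. Each library was made from total RNA of a pool of 18 dissected whole brains, and the letters A, B and C mark separate pools. Flies of each sex had been kept apart, in groups, and no genotype, drug or other treatment set the ages apart. The 6 libraries are called F5A, F5B, F5C, F30A, F30B and F30C, and values for 1 age are always given in the order A, B, C. The other libraries came from females of 20 and 40 days (3 each) and from males of the same 4 ages (3 each, and 2 at 30 days). A pooled brain library averages neurons, glia and whatever adheres to the tissue, so less RNA per cell and fewer cells of a type cannot be told apart in any result here.

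At a synapse, vesicles loaded with transmitter dock at the active zone and fuse through SNARE proteins that Sec1/Munc18 proteins hold ready and that NSF and SNAP proteins take apart again. Clathrin adaptors and the GTPase dynamin then recover the membrane, and receptors and ion channels turn the released transmitter into a current. Acetylcholine is the main fast excitatory transmitter of the insect brain and GABA the main inhibitory one. Most of the ATP for this comes from mitochondria, and brains of old flies are known for raised levels of transcripts of stress and immune responses.

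Total counts were 23506695, 24989680 and 28687450 at 5 days and 12541109, 12735231 and 25126334 at 30 days, so F30A and F30B were the shallowest. A gene without a count had a limit of 0.105 to 0.239 CPM in these libraries, which is 3 counts and covers counting error only. Levels below are CPM, a gene's counts scaled to the size of its library with TMM, a factor that evens out a few very abundant genes. Neurons were plainly present: elav, a neuronal RNA-binding protein, was at 294, 294 and 452 CPM in young and 219, 250.2 and 295 CPM in 30-day-old brains. Markers of other tissues differed strongly between libraries of 1 age. The summed level of 23 tested digestive enzymes and midgut markers was 103, 26310 and 29.0 CPM at 5 days and 27890, 7361 and 2512 CPM at 30 days, and F5B, F30A and F30B, together with the 40-day library F40A, had the midgut gene mex1 above 10 CPM. The 11 tested ovary and eggshell genes summed to 10.1, 32.7 and 247 CPM and to 130, 4.19 and 3.37 CPM, with F5C and F30A high, and genes of fat body and yolk to between 14130 CPM (F30B) and 121400 CPM (F30C). F5C also held more of long transcripts, with a slope of 0.53 on the log2 scale per 10-fold of exon length, against −0.04 and −0.10 in F5A and F5B and −0.31, −0.31 and −0.12 in the 30-day libraries. The part of these differences in the results was not tested beyond the alternatives given beside them.

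**Figure D1:**
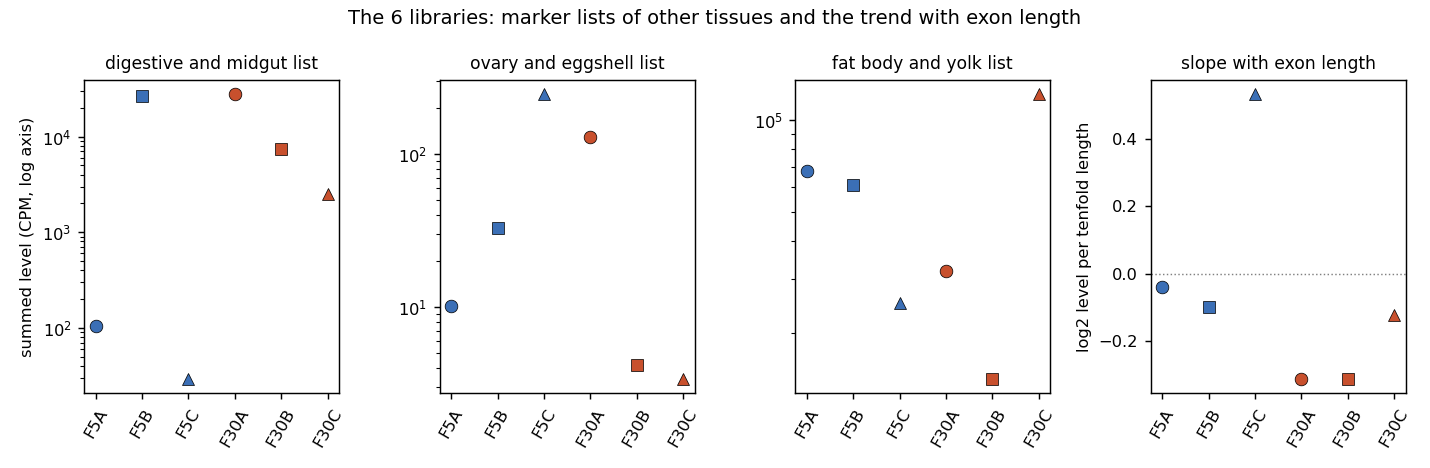
Summed levels of 3 marker lists of other tissues (CPM, log axes) and the slope of the log2 level with exon length, in each of the 6 libraries. The digestive list ran from 29.0 CPM in F5C to 27890 CPM in F30A, and the slope was highest in F5C (0.53) and lowest in F30A and F30B.

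Of 10505 genes tested, 701 changed (6.67%), of which 195 rose (1.86%) and 506 fell (4.82%). Each count of a gene list below is to be read against these shares. A gene counted as changed when it passed a 5% FDR (Benjamini-Hochberg) in both of edgeR's quasi-likelihood tests, over the 4 female ages and for 30 against 5 days, and rose and fell are used of such genes alone. Every adjusted p below is the one of the second test, unless said otherwise, and a signed value that stands before an SE in parentheses is the log2 fold change, 30 against 5 days where no other pair is named. Before adjustment 2771 genes (26.4%) had p under 0.05, 1189 higher (11.3%) and 1582 lower (15.1%). Falls were many and moderate, rises fewer and larger. The median log2 fold change was −0.84 among the 506 that fell and 1.05 among the 195 that rose, against −0.001 over all genes tested, and 123 fell and 104 rose by more than a factor of 2. In 700 of the 701 genes the 3 libraries of 1 age lay wholly above or below those of the other, which held for 3380 (32.2%) of all genes tested, 1373 (13.1%) higher and 2007 (19.1%) lower at 30 days. The exception was CG5955, chosen here for that reason, with 58.4, 40.3 and 41.4 CPM against 55.1, 109 and 114 CPM. Genes that pass a test on these same libraries mostly lie apart in this way, so the separation adds no support to the calls. Genes that fell were longer, with a median exon length of 3039 bases (501 genes) against 2179.5 (192) for those that rose and 2026.5 over 10394 genes tested.

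How many genes passed depended on single libraries. Dropping F30B left 43 genes, dropping F30A 166, dropping F40B 238 and dropping F40C 323. Dropping F5C left 378, F20C 440, F40A 450 and F5B 453, and each of the other 4 between 492 and 842. The 6 libraries fitted alone gave 0 calls, with 2456 genes at an unadjusted p under 0.05. Without the mex1 libraries F30C is the only 30-day library. That fit has no replicates at 30 days, so for genes and lists only its log2 fold changes are given below. Its count of passing genes appears only among the alternatives at the end, and no conclusion is drawn from it. With the digestive level as a covariate 197 passed, with a trend in exon length removed 771, and in DESeq2 1503. A set of 39 genes passed with any 1 of the 12 female libraries left out, 18 higher and 21 lower at 30 days, and another 96 were lost only without F30B. Because these losses are so wide, the libraries on which a call rests are named with each group of genes.

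Genes of vesicle fusion and the active zone were lower in 30-day-old brains. Of 29 tested, 17 fell and none rose, and in 27 the groups did not overlap. Over all genes tested 4.82% fell, and 19.1% had groups without overlap and lower at 30 days. The median log2 fold change was −0.72, and all 29 lay between −1.22 and −0.20. The largest fall was that of comt (X, 13259021 to 13262488, plus strand), the NSF ATPase that takes spent SNARE complexes apart, at 465, 454 and 532 CPM at 5 days and 177, 191 and 254 CPM at 30 days. Its 30-day libraries were all far below the 5-day ones, and the log2 fold change was −1.22 (SE 0.17, adjusted p = 0.00798). Rop (3L, 4136359 to 4138996, minus strand), the Munc18 protein that binds syntaxin and is needed for fusion, was at 398, 395 and 442 and 227, 202 and 237 CPM, a tight pair of groups with a fall of 0.89 (SE 0.10, adjusted p = 0.00567).

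The partners of NSF fell as well. The adaptor alphaSnap (3L, 20313632 to 20316577, plus strand) was at 590.3, 598 and 600.1 CPM and then at 355, 338 and 409.7 CPM (log2 fold change −0.70, SE 0.11, adjusted p = 0.00897). Its relative gammaSnap1 was at 119, 117 and 106 and 64.7, 56.2 and 72.5 CPM (−0.82, SE 0.11, adjusted p = 0.00798), with 32.1% of its exon bases also covered by the potassium channel gene sei on the other strand, which itself fell. In both genes the groups stood well apart. Among the SNARE proteins themselves Snap25 (3L, 24074180 to 24299205, plus strand) fell furthest, from 370.2, 384 and 486 CPM to 181, 172 and 245 CPM (log2 fold change −1.05, SE 0.17, adjusted p = 0.00898). The vesicle SNARE nSyb was at 1195, 1106 and 1303 CPM and at 509, 614 and 789 CPM (−0.91, SE 0.18, adjusted p = 0.017), and the plasma membrane SNARE Syx1A at 159, 172 and 221 and 104, 105 and 127 CPM (−0.72, SE 0.14, adjusted p = 0.0175). So each of the 3 core fusion proteins had its highest 30-day library below its lowest 5-day library, and in each F30C was the highest of the 30-day libraries.

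Calcium sensing and vesicle supply followed the same direction. Syt1 (2L, 2772327 to 2799979, minus strand), the calcium sensor of fast release, was at 1035, 1064 and 1590.2 CPM, with F5C highest, and at 519, 564 and 725 CPM (log2 fold change −1.03, SE 0.22, adjusted p = 0.0202). Rab3, a GTPase of synaptic vesicles, fell from 419 ± 58.9 to 198 ± 35.6 CPM (SD, n = 3; log2 fold change −1.08, SE 0.17, adjusted p = 0.00897), and Csp, a vesicle chaperone, from 332 ± 10.9 to 216 ± 17.5 CPM (SD, n = 3; −0.62, SE 0.10, adjusted p = 0.00897). Falls also passed for the vesicle proteins Syn and Sap47 (−0.88 and −0.98), for Syt4, Syt7 and Sytalpha (−0.89, −0.90 and −0.84), for Caps, a factor of dense-core vesicle release (−0.64), and for Rbp, a RIM-binding protein of the active zone (−0.67). Of the active zone scaffold, brp did not pass: it was at 474, 545 and 1192 CPM and 363, 452 and 463 CPM (log2 fold change −0.79, SE 0.31, adjusted p = 0.137), with F5C more than the other 5-day libraries and F30A to F30C below all of them. The priming factor unc-13 (−0.42, SE 0.16, adjusted p = 0.127) did not pass either, nor did the fusion clamp cpx, which was at 2380.1, 1922 and 2106 and 840.2, 1208 and 1431 CPM (−0.88, SE 0.20, adjusted p = 0.0286) and missed the test over the 4 ages.

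Of these genes Rop, comt and gammaSnap1 passed with any 1 library left out, with an adjusted p of at most 0.0417 in either test. Snap25, alphaSnap, Rab3 and Csp were lost only without F30B, at adjusted p of 0.058, 0.0567, 0.0567 and 0.0622. Sap47 and Sytalpha were lost without F30A, F30B or F40B (adjusted p up to 0.103), Syt1 and Syx1A without those or F40C (up to 0.104), nSyb and Syn in 6 of the 12 fits, Syt4 in 8, Syt7 in 10, and Rbp and Caps in 11 (up to 0.173). The list had 17 falls, and 7 without F30A or F40B, 3 without F30B, 11 without F40A and 9 without F40C. Its median lay between −0.80 and −0.57 in these fits. It was −0.64 without the mex1 libraries, where F30C alone stands for 30 days, and −0.67 with the length trend removed, with 17 falls.

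**Figure D2:**
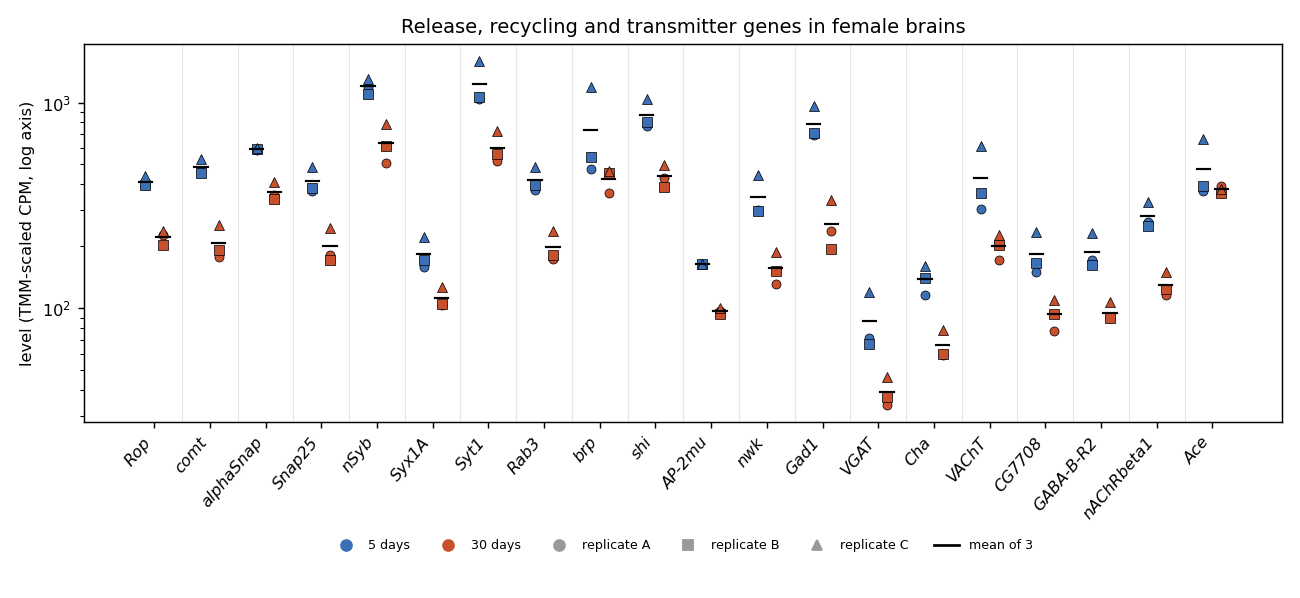
Levels of 20 genes of vesicle release, recycling and transmission in each library (TMM-scaled CPM, log axis; blue 5 days, orange 30 days; marker shape is the replicate letter, bars are means of 3). The orange points lie below the blue ones in every gene but Ace, whose groups overlap.

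Membrane recovery genes were partly lower. Of 15 tested, 6 fell and none rose, with a median of −0.55. The groups did not overlap in 10 on the lower side and 2 on the higher, against 19.1% and 13.1% of all genes tested. AP-2mu (3R, 22462455 to 22464603, plus strand), the subunit of the clathrin adaptor that reads cargo, was very even within each age, at 165, 164 and 164 CPM and 97.1, 93.1 and 101 CPM. The 2 groups did not come near each other, and the log2 fold change was −0.76 (SE 0.10, adjusted p = 0.00768). The dynamin gene shi (X, 15892116 to 15906716, plus strand), whose GTPase pinches vesicles off, was at 769, 809 and 1041 CPM and then at 430.4, 389 and 499 CPM (−0.99, SE 0.16, adjusted p = 0.00897). Larger still was the fall of nwk, an F-BAR protein of presynaptic membranes, from 302, 298 and 443 CPM to 131, 151 and 187 CPM (log2 fold change −1.15, SE 0.20, adjusted p = 0.0117). The phosphatase Synj (−0.55, SE 0.12, adjusted p = 0.0232), the scaffold Dap160 (−0.68) and the clathrin assembly protein lap (−0.58) fell by less. EndoA, which works with Synj in uncoating and was missed by the spelling of the list, fell from 399.9, 375 and 491 to 224, 239 and 287 CPM (−0.75, SE 0.16, adjusted p = 0.0202) and was chosen after its values were seen. AP-2mu kept its call without any 1 library, shi lost it without F30B (adjusted p = 0.0622), nwk without F30A or F30B (0.0673), and Dap160 and Synj also without F40B or F5C (0.14 and 0.127), while EndoA was lost in 6 fits and lap in 8. The list had 1 fall without F30B, 2 without F30A and 3 without F40B or F5C, and a median of −0.33 without F5C.

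Genes that make and move acetylcholine were lower at 30 days. Of 4 tested, 3 fell, and the median was −1.02. Cha, choline acetyltransferase, was at 116, 139.9 and 161 CPM and 59.2, 59.8 and 78.6 CPM (−1.07, SE 0.17, adjusted p = 0.00898). VAChT, the vesicular transporter encoded in the same locus (3R, 18705501 to 18718916, plus strand), was at 304, 365 and 614 and 171, 202 and 227 CPM (−1.09, SE 0.25, adjusted p = 0.0288). The 2 genes share 606 exon bases on the same strand, 15.1% of Cha and 8.54% of VAChT. The study counted only reads without ambiguity between genes, so reads on those bases would be in neither count. The third was CG7708, the high-affinity choline transporter, at 149.9, 166 and 234 CPM and 77.4, 93.8 and 109 CPM (−0.97, SE 0.19, adjusted p = 0.0171), with 69.5% of its exon bases shared with CG46318 on the same strand. By contrast Ace, the acetylcholinesterase that ends the signal, was at 370.2, 392 and 664 CPM and 392, 365 and 381 CPM, overlapping groups with F5C alone high (−0.33, SE 0.22, adjusted p = 0.379). Cha was lost without F30B (adjusted p = 0.0573), CG7708 without F30A, F30B or F40B (0.0906) and VAChT without F5C, F30A, F30B, F40B or F40C (0.121), so that the list had 1 fall without F30A or F40B and none without F30B.

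Of the 10 nicotinic receptor subunits, which form the cation channels opened by acetylcholine, 2 fell and 1 rose, with a median of −0.64. Of all genes tested 4.82% fell and 1.86% rose. The subunit nAChRbeta1 (3L, 4429349 to 4435993, plus strand) fell from 264, 250.4 and 328 CPM to 115, 124 and 150.3 CPM (−1.11, SE 0.15, adjusted p = 0.00798). nAChRalpha2 was at 63.5, 67.8 and 85.1 CPM and 32.3, 35.4 and 37.8 CPM (−1.04, SE 0.15, adjusted p = 0.0088). Both had clear gaps between the ages. nAChRbeta2 (−0.91, SE 0.22, adjusted p = 0.0346) missed the test over the 4 ages, and nAChRalpha7 (−0.72) and nAChRalpha5 (−0.39) the test of 30 against 5 days. The riser was nAChRbeta3 (2L, 545129 to 547096, plus strand), at 54.3, 38.5 and 23.3 CPM at 5 days and 223, 97.7 and 85.1 CPM at 30 days (1.81, SE 0.40, adjusted p = 0.0259), with F30A more than the other 30-day libraries. All of its exon bases (100%) lie within exons of Ets21C, a stress-responsive transcription factor on the other strand. The level of Ets21C was 1.93, 2.53 and 1.699 CPM and 6.76, 11.8 and 5.47 CPM (1.96, SE 0.63, adjusted p = 0.0832). Where strand was not used, reads on those bases would be counted for neither gene. nAChRbeta1 passed without any 1 library, nAChRalpha2 was lost without F30B (0.0567), and nAChRbeta3 passed in 2 of 12 fits. The list had 1 fall without F30B and 4 without F5B, and its median was −0.28 without F5C.

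Genes of inhibitory transmission by GABA were lower as well. Gad1 (3L, 4074077 to 4088744, minus strand), the glutamate decarboxylase that makes GABA, was at 692, 713 and 959.9 CPM in young and 238, 193 and 335 CPM in 30-day-old brains. Every 30-day library was below the lowest 5-day library by more than a factor of 2, and the log2 fold change was −1.63 (SE 0.20, adjusted p = 0.00754). VGAT, which loads GABA into vesicles, was at 71.6, 66.9 and 120.0 CPM and 33.8, 36.9 and 46.2 CPM (−1.14, SE 0.26, adjusted p = 0.0265). Subunits of the metabotropic GABA-B receptor fell together: GABA-B-R2 from 171, 162 and 231 CPM to 89.5, 89.2 and 107 CPM (−0.98, SE 0.16, adjusted p = 0.00898), GABA-B-R1 by 0.98 and GABA-B-R3 by 0.67. Lcch3, a subunit of ionotropic GABA receptors, fell from 79.4, 71.99 and 97.7 to 43.2, 36.96 and 49.9 CPM (−0.94, SE 0.18, adjusted p = 0.0154), with 24.0% of its exon bases overlapped by Ranbp16 on the other strand. The main ionotropic subunit Rdl did not pass, at 225, 258 and 434 and 142, 196 and 192 CPM (−0.79, SE 0.26, adjusted p = 0.0803), although its groups did not overlap. The chloride gradient on which these receptors rely is set by the potassium-chloride cotransporter kcc (2R, 23907654 to 23925066, plus strand), which fell from 377, 370.3 and 639 CPM to 186, 190.2 and 199.9 CPM (−1.27, SE 0.20, adjusted p = 0.00898).

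On the glutamate side, the AMPA-type subunit GluRIA was at 50.8, 56.99 and 83.5 and 23.9, 32.4 and 34.9 CPM (−1.07, SE 0.20, adjusted p = 0.0153) and the NMDA receptor subunit Nmdar1 at 72.9, 69.7 and 102 and 45.7, 47.6 and 51.1 CPM (−0.76, SE 0.17, adjusted p = 0.0263). Both fell, as did Eaat1, the glial transporter that clears glutamate, from 612, 711 and 1135 CPM with F5C highest to a narrow 392, 393 and 425 CPM (−1.02, SE 0.20, adjusted p = 0.0171). GluRIIA, best known as a subunit of the neuromuscular junction, was the member that rose, from 16.9, 18.5 and 29.4 to 30.8, 37.7 and 40.3 CPM (0.75, SE 0.19, adjusted p = 0.0403), with F5C just below F30A. The vesicular glutamate transporter VGlut was at 406, 437 and 758 and 308, 354 and 429.7 CPM, overlapping groups (−0.55, SE 0.24, adjusted p = 0.165). In all, 9 of 21 genes of GABA and glutamate transmission fell and 1 rose, against 4.82% and 1.86% of all genes tested. The median was −0.67. Gad1 alone of them passed without any 1 library, and GABA-B-R2 and kcc were lost only without F30B (adjusted p = 0.0622 and 0.0597). GluRIA needed F30A and F30B, Lcch3 also F40B, Nmdar1 also F5C, and Eaat1 F30A, F30B, F40B and F40C (0.101), while VGAT and GABA-B-R3 passed in 4 of the 12 fits, GluRIIA in 2 and GABA-B-R1 in 1. The list had 1 fall without F30B, 2 without F30A, 3 without F40B and 5 without F40C or F5C, and a median of −0.41 without F5C.

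Receptors for amines and muscarinic receptors leaned the same way. Of 18 tested, 5 fell and none rose, where 4.82% of all genes tested fell, with a median of −0.65 (−0.40 without F5C). The dopamine receptor Dop2R was at 198, 190.1 and 430.4 CPM at 5 days, with F5C far above the other pools, and at 85.5, 112 and 105 CPM at 30 days (−1.44, SE 0.29, adjusted p = 0.0176). The serotonin receptor 5-HT1A fell from 68.2 ± 18.9 to 34.6 ± 4.86 CPM (SD, n = 3; −0.98, SE 0.20, adjusted p = 0.019), the octopamine receptor Octbeta1R from 98.6 ± 31.99 to 52.3 ± 1.25 CPM (−0.91, SE 0.23, adjusted p = 0.0378), and the muscarinic receptors mAChR-B and mAChR-A by 1.04 and 0.66. Of 12 genes of monoamine synthesis and transport 2 fell: the serotonin transporter SerT, at 22.2, 16.1 and 35.3 and 11.3, 12.4 and 13.2 CPM (−0.997, SE 0.25, adjusted p = 0.0372), and Tdc2, which makes tyramine in neurons, at 16.6, 15.7 and 19.3 and 8.47, 8.08 and 9.49 CPM (−0.99, SE 0.26, adjusted p = 0.0437). Tyrosine hydroxylase, ple, was scattered within each age (148, 64.6 and 55.9 and 162, 121 and 63.7 CPM; 0.37, SE 0.67, adjusted p = 0.782). None of the 5 receptor calls was left without F30A, F30B, F40B or F40C, 2 were left without F20C or F5C and 3 without F5B or F40A. The list of synthesis and transport had 2 falls without F5B or F40A, 1 without F20A or F40C and none without each of the other 8 libraries, nor with the length trend removed. Dop2R passed in 8 of the 12 fits, mAChR-B in 7, 5-HT1A in 6, Octbeta1R in 4, Tdc2 in 3, and SerT and mAChR-A in 2.

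Of 18 potassium channel genes 3 fell (median −0.38): the A-type channel Shal (121, 124 and 169.8 and 68.3, 72.9 and 78.1 CPM; −0.92, SE 0.18, adjusted p = 0.0162), the ERG-type channel sei (−0.79, SE 0.17, adjusted p = 0.0206) and the leak channel Task7 (−0.79, SE 0.18, adjusted p = 0.0288). Of 10 genes of sodium and sodium leak channels 3 fell (median −0.77): the leak channel na (124, 128 and 203 and 69.9, 85.7 and 96.1 CPM; −0.86, SE 0.20, adjusted p = 0.0291), its partner unc79 (−0.86, SE 0.20, adjusted p = 0.0299) and Teh1, an auxiliary subunit of the voltage-gated channel (−0.59, SE 0.16, adjusted p = 0.0435). The voltage-gated sodium channel itself, para, was at 266, 279 and 534 CPM and 283, 343 and 299 CPM, and these groups overlapped (−0.22, SE 0.26, adjusted p = 0.644). Of 7 calcium channel genes Ca-beta fell (from 128 ± 24.8 to 76.7 ± 13.5 CPM; −0.74, SE 0.19, adjusted p = 0.0394), and cac, the channel of the active zone, did not pass (169.7, 163 and 274 and 164, 204 and 195 CPM; −0.11, SE 0.20, adjusted p = 0.784). Over all genes tested in edgeR 4.82% fell. In DESeq2 6 potassium, 8 sodium and 1 calcium channel genes fell. With the length trend removed the medians were −0.19, −0.56 and −0.14, with 3, 5 and 1 falls. The fold changes of para and cac were positive without F5C (0.21 and 0.20) and with the length trend removed (0.07 and 0.14). Without F5C the medians of the 3 lists were −0.18, −0.50 and −0.10, with 1, 0 and 0 falls. No call of these lists was left without F30A or F30B, without F40B 1 potassium channel call was left, and the sodium channel list had none without F40B or F40C, 1 without F20C and 5 without F5A. Shal passed in 10 of the 12 fits, na in 7, sei and Task7 in 6, unc79 in 5, Ca-beta in 4 and Teh1 in 1.

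The sodium pump, which restores the gradients these channels spend, was among the most abundant genes that fell. Its catalytic subunit Atpalpha was at 4059.9, 4457 and 7594 CPM, F5C being highest, and at 2494, 2487 and 2939 CPM (−1.02, SE 0.23, adjusted p = 0.0273). The neuronal beta subunit nrv3 (2L, 21380000 to 21393319, plus strand) fell from 2588, 2559 and 3514 CPM to 1097, 1034 and 1512 CPM (−1.25, SE 0.20, adjusted p = 0.00897). In both genes the ages were well apart. The glial beta subunit nrv2 did not pass, at 1708, 1806 and 2911 and 1359, 1339.8 and 1391 CPM (−0.65, SE 0.19, adjusted p = 0.0636). nrv3 was lost only without F30B (adjusted p = 0.0567), whereas Atpalpha passed in 2 of 12 fits.

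Calcium and second-messenger genes held some of the most stable calls. Cbp53E (2R, 16973927 to 16996057, plus strand), a calcium-binding protein of neurons related to calbindin, was at 416, 418 and 512 CPM and 163, 118 and 202 CPM. Its groups were separated by more than a factor of 2, with F30B lowest, and the log2 fold change was −1.48 (SE 0.20, adjusted p = 0.00798). Gycalpha99B (3R, 29682503 to 29685758, plus strand), a subunit of the guanylyl cyclase that answers nitric oxide, was at 236, 217 and 296 and 95.6, 86.2 and 121 CPM (−1.31, SE 0.17, adjusted p = 0.00768). CaMKII, the calmodulin-dependent kinase of synaptic plasticity, fell from 793, 740.1 and 877 CPM to 428, 380.0 and 492 CPM (−0.89, SE 0.14, adjusted p = 0.00904). The calls of Cbp53E and Gycalpha99B held without any 1 library, and that of CaMKII was lost without F30B (0.0622).

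CaMKII belongs to a list of 26 learning and memory genes, of which 6 fell and 1 rose, against 4.82% and 1.86% of all genes tested (median −0.41, and −0.19 without F5C or with the length trend removed). The others that fell were klg, an immunoglobulin-type adhesion protein needed for long-term memory, from 145 ± 42.2 to 67.2 ± 10.96 CPM (SD, n = 3; −1.11, SE 0.21, adjusted p = 0.0156), the G protein subunits Galphao (−0.87, SE 0.17, adjusted p = 0.0163) and Galphas (−0.54, SE 0.12, adjusted p = 0.0245), and the regulatory subunits Pka-R1 (−0.56) and Pka-R2 (−0.60) of the cAMP-dependent kinase. The riser was the integrin subunit scb, at 38.7, 49.4 and 56.8 and 215, 217 and 58.6 CPM (1.76, SE 0.47, adjusted p = 0.0464), with F30C close to F5C and the other 30-day pools far higher. klg passed in 8 of the 12 fits, Galphao and Pka-R2 in 7, Pka-R1 in 6, Galphas in 2 and scb in 1. The list had no falls without F30B, 1 without F30A, F40B or F40C and 2 without F40A, and the call of scb was kept only without F30C. Without the mex1 libraries the log2 fold change of scb was 0.30.

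Among 33 neuropeptide genes 4 fell and 1 rose, against 4.82% and 1.86% of all genes tested. The median of the list was −0.17, or −0.07 without F5C and 0.03 with the digestive level as a covariate. SIFa (2R, 24577566 to 24578143, minus strand), a peptide that acts on feeding, sleep and courtship, was at 66.5, 56.5 and 63.4 CPM and 16.2, 23.5 and 33.1 CPM (−1.35, SE 0.27, adjusted p = 0.017). The insulin-like peptide Ilp3 was at 100.3, 90.2 and 112 CPM and 58.1, 36.1 and 45.8 CPM (−1.11, SE 0.22, adjusted p = 0.0182). Both fell by more than a factor of 2 on average, with no overlap. ITP, ion transport peptide, fell from 387 ± 41.5 to 227 ± 23.1 CPM (SD, n = 3; −0.77, SE 0.13, adjusted p = 0.00987) and Nplp1 from 235 ± 61.2 to 124 ± 23.04 CPM (−0.92, SE 0.19, adjusted p = 0.0187). The riser Nplp4 was at 6.69, 6.98 and 5.13 and 12.4, 9.602 and 10.3 CPM (0.78, SE 0.21, adjusted p = 0.0483). SIFa was lost without F30A or F30B (adjusted p up to 0.0852), ITP without F30B or F40B (0.0887), Ilp3 without F30B or F5C (0.119), Nplp1 in 5 of the 12 fits and Nplp4 in 10, and the list had no falls without F30B and 2 without F30A or F40B. Start1, on the other strand, covers 21.1% of the exon bases of SIFa.

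Cell surface proteins of the Dpr and Beat families, immunoglobulin-type receptors with which neurons pick their partners, were lower at 30 days almost throughout. The list carries DIP in its name, but no DIP gene was in it. Of 32 tested, 20 fell and none rose, and in 30 the 30-day libraries were all below the 5-day ones (19.1% of all genes tested). All 32 had a negative log2 fold change, between −1.16 and −0.29, with a median of −0.85. beat-IIa was at 96.9, 103 and 134 CPM and 43.1, 45.6 and 60.8 CPM (−1.16, SE 0.22, adjusted p = 0.0159), and beat-Va at 37.6, 34.5 and 50.02 CPM and 19.04, 16.3 and 23.4 CPM (−1.05, SE 0.17, adjusted p = 0.00897). Of the Dpr proteins, dpr13 was at 54.7, 56.5 and 76.7 CPM and 27.98, 25.4 and 36.1 CPM (−1.07, SE 0.19, adjusted p = 0.0115), dpr10 fell by 1.03 and dpr15 by 1.12. In each F5C was the highest library of the 6. dpr, the founding member, was missed by the spelling of the list and also fell (73.4, 71.7 and 103 and 33.8, 31.2 and 47.03 CPM; −1.15, SE 0.23, adjusted p = 0.0187). Dropping F30B left no falls in the list, dropping F30A 3, F40B 6, F40C 9 and F5C 10, and its median without F5C was −0.64. beat-Va, beat-VI (−1.04) and dpr10 were lost only without F30B, dpr13 without F30A or F30B, beat-IIa also without F40B or F40C, and dpr15 and dpr passed in 6 and 5 of the 12 fits.

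A fall that held in all 12 fits was that of TM4SF (2R, 23878197 to 23880860, plus strand), a tetraspanin, a family of membrane proteins that span the bilayer 4 times. It was at 447, 438 and 504 CPM in young and 114, 97.9 and 153 CPM in 30-day-old brains. The fall was 3.804-fold on the means (−1.93, SE 0.16, adjusted p = 0.00146), and the adjusted p of either test stayed at or under 0.00922 without any 1 library. Of 30 tetraspanin genes tested, 5 fell and 1 rose, against 4.82% and 1.86% of all genes tested, with a median of 0.20. Tsp97E (217, 232 and 272 and 116, 113 and 166 CPM; −0.87), Tsp42Ej (−1.08), Tsp5D (−1.21) and Tsp66E (−0.49) were the others that fell. Tsp42Ed rose, from 35.4, 70.00 and 38.3 CPM to 288, 303 and 124 CPM (2.31, SE 0.49, adjusted p = 0.0242), with F30C less than the other 30-day pools. Tsp42Ej was lost without F30A or F30B, Tsp5D also without F40B, Tsp97E in 5 of the 12 fits and Tsp42Ed and Tsp66E in 9, and the list had 1 fall without F30A or F30B, 2 without F40B and 3 without F40A or F40C. Fas1, an abundant adhesion protein of axons, fell from 1413, 1253 and 2069 to 753, 839.7 and 924 CPM (−0.91, SE 0.20, adjusted p = 0.0247) and passed in 3 of the 12 fits.

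**Figure D3:**
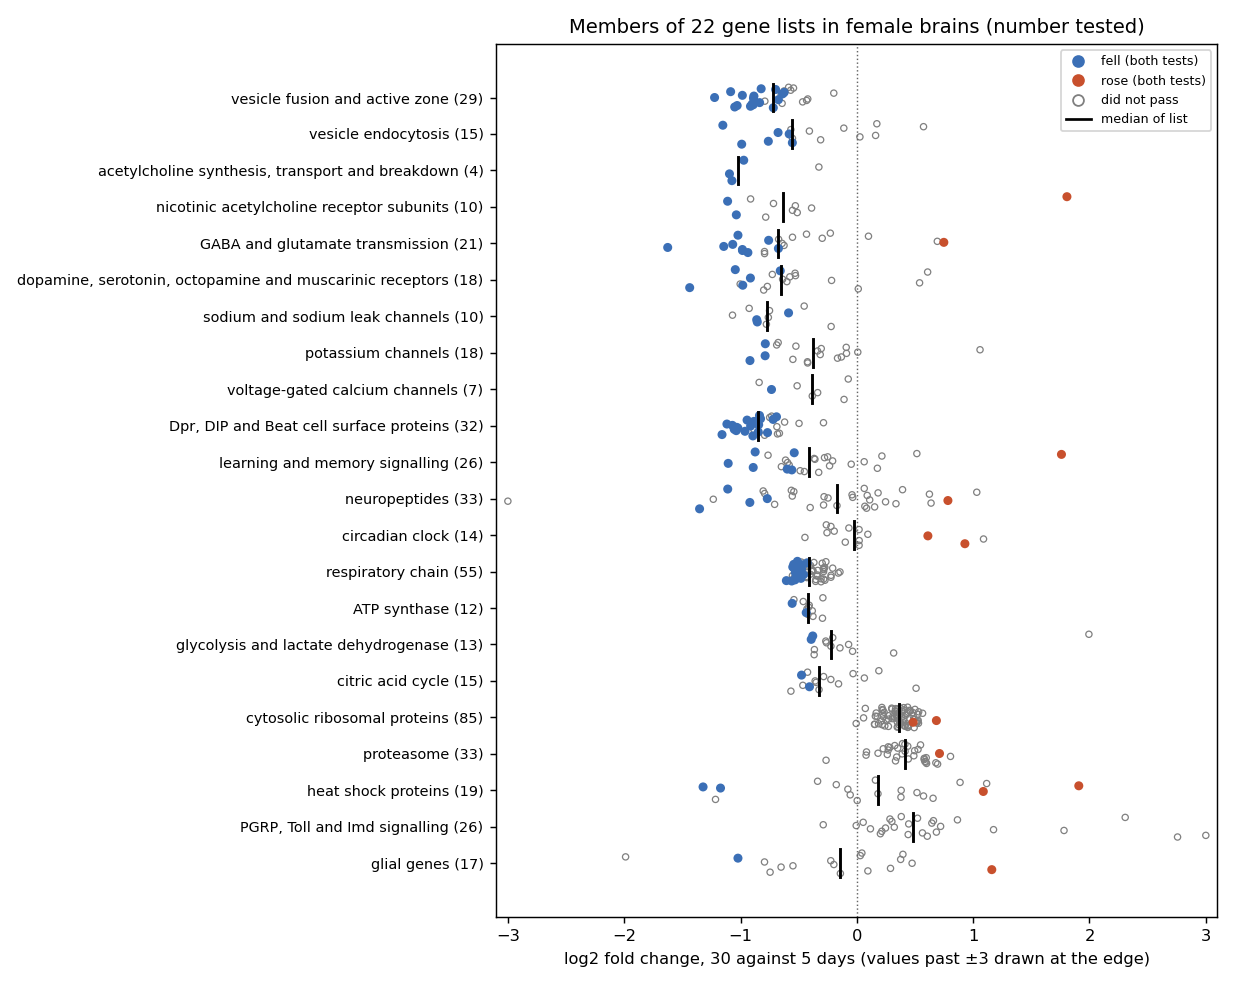
Log2 fold change at 30 against 5 days of each tested member of the gene lists (x axis, with values past ±3 drawn at the edge; filled blue fell, filled orange rose, open did not pass; the black bar is the median of the list). The medians of vesicle fusion (−0.72) and of the Dpr, DIP and Beat list (−0.85, no DIP gene in it) lie well left of 0. Those of the respiratory chain (−0.41) and cytosolic ribosomal proteins (0.36) sit in narrow bands.

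Energy genes were lower by small and even amounts. Of 55 nuclear genes of respiratory chain complexes I to IV and cytochrome c, 16 fell and none rose, and all 55 had a log2 fold change between −0.61 and −0.15, with a median of −0.41. In 40 of them the groups did not overlap, all with the 30-day libraries lower (19.1% of all genes tested). CG1970, a core subunit of complex I, was at 259.9, 233 and 207 CPM and 142, 141 and 177 CPM (−0.61, SE 0.12, adjusted p = 0.0181). ND23, another core subunit, was at 204, 178 and 162 CPM and 114, 115 and 139.8 CPM (−0.56, SE 0.12, adjusted p = 0.0202). In both F30C was the highest of the 30-day pools and still below every 5-day one. NDUFS3 (−0.53), CG12203 (−0.48), CG7712 (−0.52) and CG9350 (−0.53) of complex I also fell, as did SdhB of complex II (−0.48), the Rieske protein RFeSP of complex III (−0.55), the cytochrome c oxidase subunits CoIV, CoVa and levy (−0.47, −0.54 and −0.43) and cytochrome c, Cyt-c-p (−0.51). The ADP/ATP translocase sesB (X, 10780893 to 10786958, minus strand), which trades ATP for ADP across the inner membrane, fell from 2922, 2776 and 2442 CPM to 1641, 1546 and 1799.8 CPM (−0.71, SE 0.14, adjusted p = 0.0173).

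Of 12 ATP synthase genes 2 fell, with a median of −0.42. ATPsynG, named by an older symbol in the deposited counts, was at 210.2, 174 and 196 and 129.8, 134 and 131 CPM (−0.56, SE 0.11, adjusted p = 0.0154) and was lost without F30A or F30B (0.0852), while ATPsyn-b passed in 1 of the 12 fits. The list had 5 falls without F5C, none without F30A or F30B and 1 without each other library. Of 13 genes of glycolysis and lactate dehydrogenase PyK, pyruvate kinase (−0.38, SE 0.10, adjusted p = 0.0445), and Pglym78, a phosphoglycerate mutase (−0.39, SE 0.10, adjusted p = 0.0398), fell, while Gapdh1 was at 707, 689.7 and 571 and 615, 621 and 638 CPM (−0.07, SE 0.11, adjusted p = 0.752). Lactate dehydrogenase, ImpL3, was at 14.2, 25.1 and 7.68 CPM and 92.4, 58.4 and 36.6 CPM, with no overlap and F30A highest, but it did not pass the test over the 4 ages (1.99, SE 0.49, adjusted p = 0.037). The calls of this group rest on many libraries at once: dropping F30A or F30B left no falls in the chain, F5A 1, F20C 2, F5B or F40B 3, F30C 4, F40C 6, F40A 8 and F20B 9. CG1970 and sesB were lost without F30A or F30B (adjusted p up to 0.0869), ND23 also without F5A, CG9350 in 6 of the 12 fits, RFeSP in 7, NDUFS3 in 8, CG12203, CG7712 and CoVa in 9, SdhB, CoIV, Cyt-c-p and Pglym78 in 11, and levy and PyK in all 12. The median of the chain was −0.44 without F5C and lay between −0.44 and −0.33 with any 1 library left out.

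The proton pump of vesicles and lysosomes gave 2 falls among 22 genes tested. Vha68-1 (2L, 13000770 to 13004107, minus strand), a copy of the ATP-hydrolysing A subunit, was at 487, 490.4 and 572 CPM and 200.2, 195 and 274 CPM, the groups being far apart (−1.21, SE 0.17, adjusted p = 0.00798). VhaM9.7-a fell from 127, 122 and 129 to 73.1, 65.8 and 82.6 CPM (−0.77, SE 0.12, adjusted p = 0.00897). The first call held without any 1 library, and the second was lost without F30B (0.0638).

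Turandot genes encode small secreted proteins made after heat, infection and other stress, and 3 of the 4 tested rose (median 5.74). TotA (3R, 20871036 to 20871700, plus strand) was at 6.61, 10.8 and 4.38 CPM in young and 71.4, 571 and 369.8 CPM in 30-day-old brains (5.53, SE 0.86, adjusted p = 0.00981). TotM was at 2.66, 1.205 and 1.33 CPM and 28.3, 223 and 69.5 CPM (5.95, SE 0.94, adjusted p = 0.0105), and TotC at 1.502, 0.665 and 1.19 and 19.7, 328 and 127 CPM (7.13, SE 1.13, adjusted p = 0.011). In all 3 genes F30B was highest and F30A lowest of the 30-day libraries, and F30A was still far above every 5-day library. TotX was at 6.74, 4.11 and 1.05 and 5.36, 4.12 and 12.6 CPM, overlapping groups (0.90, SE 0.63, adjusted p = 0.403). TotC passed without any 1 library, while TotA just missed without F30B (adjusted p = 0.0504) and TotM without F5B (0.0506).

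Several genes rose from low levels. CG11671 (3R, 8287876 to 8288613, plus strand) was at 0.172, 0.415 and 0.204 CPM at 5 days, close to the limit of 3 counts, and at 97.8, 53.7 and 4.59 CPM at 30 days. F30C was far below the other pools, and the fitted log2 fold change of 7.59 (SE 1.44, adjusted p = 0.019) depends on how near-zero counts are handled. CG10814 (2R, 13375975 to 13377731, minus strand) was at 6.26, 2.74 and 0.6796 CPM and 228, 697 and 216 CPM (6.88, SE 0.89, adjusted p = 0.00798). CG7763, which encodes a C-type lectin domain protein, was at 0.343, 0.208 and 0.272 CPM and 17.4, 3.28 and 10.3 CPM (5.20, SE 0.83, adjusted p = 0.00898). CG12256 (3R, 12225282 to 12226339, minus strand), a predicted serine protease, was at 2.87, 2.24 and 2.31 CPM and 88.8, 23.4 and 55.9 CPM (4.50, SE 0.47, adjusted p = 0.00409), and 85.1% of its exon bases are covered by an antisense RNA, asRNA:CR43477. CG17264 was at 0.601, 0.831 and 1.12 and 20.5, 43.4 and 2.76 CPM (4.68, SE 0.91, adjusted p = 0.019). Obp99b, an odorant binding protein, was at 3.304, 5.400 and 0.816 CPM and 44.6, 128 and 28.6 CPM (4.40, SE 0.84, adjusted p = 0.019), and its relative Obp44a, the other of 26 odorant binding protein genes that passed (median −1.32), fell from 2118, 1846 and 2857 to 1174, 929 and 958 CPM (−1.16, SE 0.26, adjusted p = 0.0265). CG10814, CG7763 and CG12256 passed without any 1 library, CG12256 with an adjusted p of at most 0.0242, whereas CG11671 passed in 3 of the 12 fits, CG17264 in 4, Obp99b in 7 and Obp44a in 8. Without the mex1 libraries, where F30C alone stands for 30 days, the log2 fold change was 1.66 for CG17264 and 4.56 for CG11671. In the same fit it was 5.98 for CG10814, 5.05 for CG7763, 4.44 for CG12256, 3.82 for Obp99b and −1.37 for Obp44a.

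**Figure D4:**
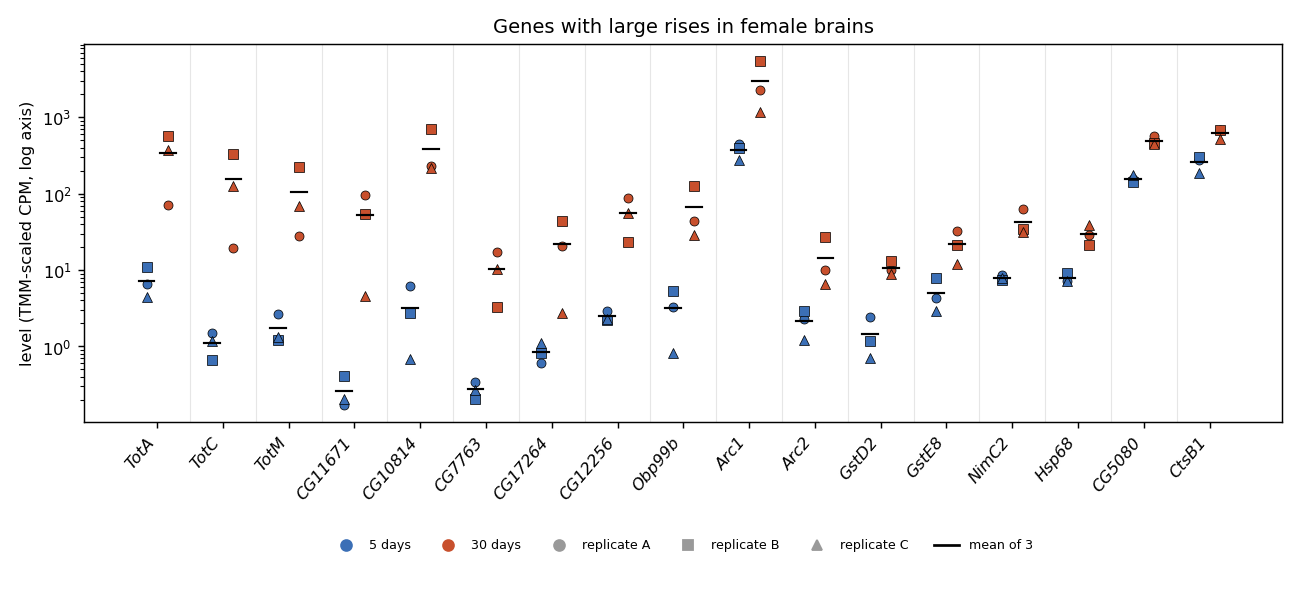
Levels of genes with large rises in each library (TMM-scaled CPM, log axis; blue 5 days, orange 30 days; marker shape is the replicate letter, bars are means of 3). The largest rises were named only where the groups did not overlap, so orange above blue was set by that rule. For the Turandot genes, CG11671 and CG17264 the 3 orange points spread widely.

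Arc1 (2R, 14357927 to 14360297, minus strand) derives from a retrotransposon Gag gene and forms capsids that carry RNA between cells. It was at 452, 395 and 279 CPM in young and 2258, 5454 and 1181 CPM in 30-day-old brains (2.98, SE 0.53, adjusted p = 0.0137). Its neighbour and relative Arc2 was at 2.32, 2.95 and 1.22 CPM and 10.03, 27.2 and 6.65 CPM (2.75, SE 0.61, adjusted p = 0.0263). In both F30B was highest and F30C lowest, and every 30-day pool was above every 5-day one. The pair lie side by side on 2R and are similar in sequence, so some reads may be uncounted or misplaced. Arc1 was lost without F5B, F5C or F30B (adjusted p up to 0.0646) and Arc2 passed in 3 of the 12 fits.

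Among detoxifying enzymes, 2 of 32 glutathione S-transferase genes rose and 1 fell, against 1.86% and 4.82% of all genes tested (median 0.51). GstD2 was at 2.45, 1.16 and 0.714 CPM and 10.1, 13.3 and 8.79 CPM (2.90, SE 0.70, adjusted p = 0.0341) and GstE8 at 4.33, 7.98 and 2.96 and 32.7, 21.3 and 11.9 CPM (2.11, SE 0.39, adjusted p = 0.0145). GstE7 missed the test over the 4 ages (1.603, SE 0.36, adjusted p = 0.0258), and GstD11 fell (4.93, 5.28 and 4.04 and 1.32, 0.533 and 1.75 CPM; −1.97, SE 0.52, adjusted p = 0.0435). These genes sit in clusters of close relatives, and reads that match several copies may be uncounted or misplaced. cnc, the NRF2-type transcription factor of oxidative stress, was at 293, 274 and 279 CPM and 379, 426 and 434 CPM, a small and even rise (0.55, SE 0.11, adjusted p = 0.0187), and was the member of 16 antioxidant genes that passed. Of 19 heat shock genes 2 rose and 2 fell. Hsp68 was at 7.25, 9.22 and 7.14 CPM and 28.6, 21.03 and 38.9 CPM (1.91, SE 0.28, adjusted p = 0.00854), and Hsp26 at 18.3, 12.8 and 14.7 and 45.5, 30.1 and 21.7 CPM (1.09, SE 0.29, adjusted p = 0.0461). In the opposite direction Hsp67Bc went from 20.6, 17.7 and 18.3 CPM to 7.62, 8.31 and 6.69 CPM (−1.32, SE 0.24, adjusted p = 0.0126), and Hsp67Ba, 75.9% overlapped by an antisense RNA, from 45.2, 37.3 and 61.5 to 20.1, 17.8 and 25.99 CPM (−1.17, SE 0.22, adjusted p = 0.0145). Hsp68 held without any 1 library and cnc was lost without F30B (0.0803), Hsp67Ba and Hsp67Bc without F30A or F30B, GstE8 in 6 fits, GstD2 in 8, GstD11 in 9 and Hsp26 in 11, and no glutathione S-transferase call was left without F30A, F30B, F40B or F40C, while without F30C 4 of these genes rose, and 2 antioxidant genes rose without F20A or F20B. Without the mex1 libraries the log2 fold change was 0.40 for Hsp26, 0.61 for cnc, 1.71 for GstE8, 2.49 for GstD2 and 2.44 for Hsp68.

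Of 12 hemocyte genes 1 rose and 1 fell, and of 12 extracellular matrix genes 1 rose and none fell. NimC2, of the Nimrod family of phagocytic receptors, was at 8.62, 7.44 and 7.78 CPM and 62.6, 34.7 and 32.03 CPM (2.44, SE 0.32, adjusted p = 0.00798), and its relative NimC1, a hemocyte marker, at 46.2, 34.1 and 28.68 and 123, 54.9 and 93.9 CPM (1.32, SE 0.28, adjusted p = 0.0202). In both F30A was highest. PPO2, a prophenoloxidase of crystal cells, fell from 129, 90.6 and 106 CPM to 34.5, 13.9 and 45.9 CPM (−1.79, SE 0.41, adjusted p = 0.0284). The 12 hemocyte markers, NimC1 and PPO2 included, summed to 1266, 1021 and 1054 CPM and to 1366, 647 and 1339 CPM. The matrix metalloproteinase Mmp1 rose from 40.3, 40.8 and 34.4 to 96.1, 105 and 56.05 CPM (1.15, SE 0.32, adjusted p = 0.0488), and Gli, a neuroligin-like protein of glial barriers, from 20.9, 20.5 and 16.7 to 53.01, 52.8 and 24.2 CPM (1.16, SE 0.28, adjusted p = 0.0339), with F30C next to the 5-day pools. NimC2 passed without any 1 library, PPO2 was lost without F5A, F5C, F30A, F30B or F40B, and NimC1 and Mmp1 passed in 2 and Gli in 4 of the 12 fits. Without the mex1 libraries the log2 fold change was 0.37 for Gli, 0.59 for Mmp1, 1.33 for NimC1, 1.97 for NimC2 and −1.35 for PPO2.

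Lysosomal and metabolic genes were among the abundant genes that rose. Cp1, cathepsin L (2R, 13960675 to 13967981, plus strand), was at 454, 497 and 342 CPM and 957, 930.0 and 805 CPM (1.06, SE 0.18, adjusted p = 0.0105). Cp1 was also a member of the list of fat body and yolk genes. Sap-r, which encodes the saposins that help degrade sphingolipids, was at 761, 818 and 691 CPM and 1382, 1424 and 1150.2 CPM (0.80, SE 0.14, adjusted p = 0.0115). In both F5C was lowest and the groups did not overlap. CG18135, a predicted glycerophosphodiester phosphodiesterase, went from 628, 563 and 341 CPM to 1487, 1462 and 1961 CPM (1.68, SE 0.29, adjusted p = 0.0105), and the trehalase Treh, which splits the blood sugar trehalose, from 641, 667 and 951 to 1357, 1373 and 1076 CPM (0.75, SE 0.17, adjusted p = 0.0263). mbl, the muscleblind splicing factor, was at 964, 651 and 1005 CPM and 1487, 2236 and 1623 CPM (1.03, SE 0.22, adjusted p = 0.0225). Cp1, Sap-r and CG18135 were lost only without F30B (adjusted p = 0.0567, 0.0575 and 0.0504), mbl without F5A, F5B, F30B, F40B or F40C, and Treh passed in 2 of the 12 fits.

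Ribosomal protein and proteasome genes had small positive log2 fold changes, few of which passed in edgeR. Of 85 cytosolic ribosomal protein genes 2 rose, RpL35 (665, 718 and 524 and 889, 1199 and 975 CPM; 0.68, SE 0.15, adjusted p = 0.0248) and RpL29 (0.48, SE 0.13, adjusted p = 0.047). The median of the list was 0.36. All 30-day libraries were above the 5-day ones in 27 genes (13.1% of all genes tested) and below in none. At an unadjusted p under 0.05, 35 were higher (11.3% of all genes tested were). Without F5C, the library lowest in their summed level, that median was 0.25. Of 33 proteasome genes Rpn13 rose (76.2, 71.5 and 58.8 and 104, 136 and 97.9 CPM; 0.71, SE 0.17, adjusted p = 0.0288), with a median of 0.41 and 24 higher at an unadjusted p under 0.05. RpL35 was lost without F30B (0.104), RpL29 passed in 1 fit and Rpn13 in 5 of 12, and without F30C 6 ribosomal and 7 proteasome genes rose. In DESeq2 23 ribosomal and 9 proteasome genes rose, with the length trend removed 8 and 5, and with the digestive level as a covariate none.

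The small nucleolar RNAs of the Psi18S-1377 group, which guide a pseudouridine in 18S ribosomal RNA, all rose. The 5 copies lie one after another on 3R, from 30206976 to 30207883 on the minus strand, within the gene of the ribosomal protein RpS7 (30206447 to 30209020). Copy a was at 7.51, 5.36 and 6.76 CPM and 29.1, 41.3 and 33.9 CPM (2.41, SE 0.23, adjusted p = 0.00187), and copy c at 2.36, 1.54 and 1.46 and 7.07, 9.602 and 10.1 CPM (2.32, SE 0.30, adjusted p = 0.00768). Copies e, b and d rose by 1.74, 1.64 and 1.08 on the log2 scale, d being the member outside the rule for named genes. The host gene did not pass: RpS7 was at 1312, 1630.0 and 868 CPM and 1500.3, 1674 and 1755 CPM, overlapping groups (0.37, SE 0.21, adjusted p = 0.287). Of the other 2 small nucleolar RNAs in the same gene, snoRNA:Psi28S-2626 was at 1.84, 1.08 and 1.09 and 3.26, 3.43 and 3.06 CPM (1.28, SE 0.47, adjusted p = 0.115) and snoRNA:Psi28S-2149 was at 1 CPM or less in every library. Reads of near-identical copies may be uncounted or placed on the wrong copy, so the 5 rises are not 5 independent measurements. Copies a, b, c and e passed without any 1 library, and d was lost without F30B (adjusted p = 0.0567). Of 99 small nucleolar RNAs tested 6 rose and none fell, the sixth being snoRNA:Psi28S-3436a (1.05, SE 0.28, adjusted p = 0.0419), which passed in 2 of the 12 fits.

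Of 21 antimicrobial peptide genes none passed in edgeR or DESeq2, and 1 was higher at an unadjusted p under 0.05 (11.3% of all genes tested were). Their summed level was 8794, 2811 and 587 CPM at 5 days and 4645, 6087 and 5759 CPM at 30 days, so the spread among young pools was wider than the gap between the ages. Without F5A, the young pool highest in them, 3 rose. Of 26 genes of peptidoglycan recognition and of Toll and Imd signalling none passed in the edgeR fit of the 12 female libraries. In that fit 10 were higher at an unadjusted p under 0.05 (11.3% of all genes tested were). In DESeq2 6 rose, and 5 rose in edgeR with both sexes in 1 fit. The receptor PGRP-SA was at 13.3, 8.02 and 2.41 CPM and 28.1, 107 and 25.6 CPM (2.76, SE 0.75, adjusted p = 0.054), and Rel, the NF-kappaB factor of the Imd pathway, at 166, 114 and 67.2 and 254, 317 and 213 CPM (1.18, SE 0.34, adjusted p = 0.0597). Without F30C or F5A 1 gene of this list rose.

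Of 14 clock genes tested 2 rose and none fell, against 1.86% and 4.82% of all genes tested. The gene tim rose from 100.4, 122 and 81.2 to 197, 234 and 148 CPM (0.93, SE 0.23, adjusted p = 0.0331) and cwo from 85.4, 78.5 and 67.96 to 86.4, 135 and 132 CPM (0.61, SE 0.16, adjusted p = 0.0428), where F5A and F30A nearly met. The median of the list was −0.02, or 0.05 without F30B, and vri did not pass (1.09, SE 0.33, adjusted p = 0.0653). tim passed in 1 and cwo in 3 of the 12 fits. These transcripts cycle over the day, and the hour of dissection is not given in the sources used here.

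Marker lists of the cells and tissues around neurons were read beside these results. Of 17 glial genes 1 rose and 1 fell, with a median of −0.14, or 0.18 without F5C and 0.06 with the digestive level as a covariate. In the list of fat body and yolk, 1 of 10 genes rose (Cp1, described above) and none fell. Its median was 0.83, or 0.29 with that covariate. Neuronal markers, of which 3 of 10 fell (Syt1, Syx1A and nSyb, all vesicle genes described above), summed to 5456, 5568 and 9340 CPM at 5 days and 3359, 4067 and 4592 CPM at 30 days, and their median was −0.75, or −0.37 without F5C. No digestive, muscle or ovary marker passed in the edgeR fit of the 12 female libraries, and 1, 2 and 0 passed in DESeq2. In that edgeR fit 1 of 23, 2 of 24 and 1 of 11 had an unadjusted p under 0.05 (26.4% of all genes tested had). In other edgeR fits 2 muscle genes fell without F5C, with both sexes in 1 fit and by the test of 30 against 5 days alone, and 1 fell without F20A or F40B, with library totals and with no count filter. Of 22 retina genes eys fell (−0.74, SE 0.19, adjusted p = 0.0432; lost in 11 of the 12 fits), and the sum of the list was 32190, 8777 and 6385 CPM at 5 days and 7734, 29770 and 22700 CPM at 30 days, high in F5A, F30B and F30C. With the digestive level as a covariate 8 vesicle fusion genes, 6 Dpr and Beat genes and none of the respiratory chain fell. The medians of these lists were −0.63, −0.68 and −0.44.

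The 30-day state was set against the other female ages in the same fit. These comparisons share libraries with the one above, so their values are given side by side only. The libraries also differed in the number of genes with a count. It was 12155, 12110 and 12188 at 30 days, 10682, 10730 and 10815 at 20 days, and 11735, 11491 and 11999 at 40 days. F30A and F20A had similar totals, 12541109 and 12316789 counts. The slope of the log2 level with exon length differed too. It was −0.31, −0.31 and −0.12 at 30 days, −0.31, −0.05 and −0.001 at 20 days, and 0.08, 0.39 and 0.24 at 40 days. The part of these differences in the comparisons below was not tested. From 30 to 40 days 694 genes changed (6.61%), 391 higher (3.72%) and 303 lower (2.88%) at 40 days. The count was 0 without F30A, F30B, F40B or F40C, 235 without F40A, 445 without F20C and 1378 without F5C. Vesicle fusion genes were among the higher ones, 15 of 29, with 14 of 32 Dpr and Beat genes and 10 of 26 in the learning and memory list. Snap25 was at 413 ± 63.05 CPM at 5 days, 299 ± 35.7 at 20 days, 199 ± 39.8 at 30 days and 435 ± 35.7 at 40 days (SD, n = 3), with a log2 fold change of 1.12 from 30 to 40 days (SE 0.17, adjusted p = 0.0169). CaMKII (0.98, SE 0.14, adjusted p = 0.0169), Gad1 (0.82, SE 0.20, adjusted p = 0.0331) and nAChRbeta1 (0.78, SE 0.15, adjusted p = 0.021) were also higher at 40 than at 30 days. Other genes named above did not pass in this comparison: TM4SF was at 122 ± 28.2 and 124 ± 8.46 CPM (0.02, SE 0.15, adjusted p = 0.959) and AP-2mu at 96.9 ± 3.75 and 90.5 ± 7.09 CPM (−0.10, SE 0.10, adjusted p = 0.588).

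The energy and ribosome genes went the other way from 30 to 40 days. Of 55 respiratory chain genes 30 were lower at 40 days and none higher, and of 85 ribosomal protein genes 44 were lower and none higher. ND23 was at 181 ± 21.6, 141 ± 6.27, 123 ± 14.7 and 86.1 ± 2.56 CPM at 5, 20, 30 and 40 days (SD, n = 3; −0.51 from 30 to 40 days, SE 0.12, adjusted p = 0.0306). RpL35 was at 636 ± 101, 1039.9 ± 31.3, 1021 ± 160.4 and 603 ± 38.5 CPM (−0.76, SE 0.15, adjusted p = 0.0233), so its 40-day level was near the 5-day one. No gene passed in edgeR from 20 to 30 days, where 1174 (11.2%) had p under 0.05 before adjustment, and DESeq2 passed 66.

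**Figure D5:**
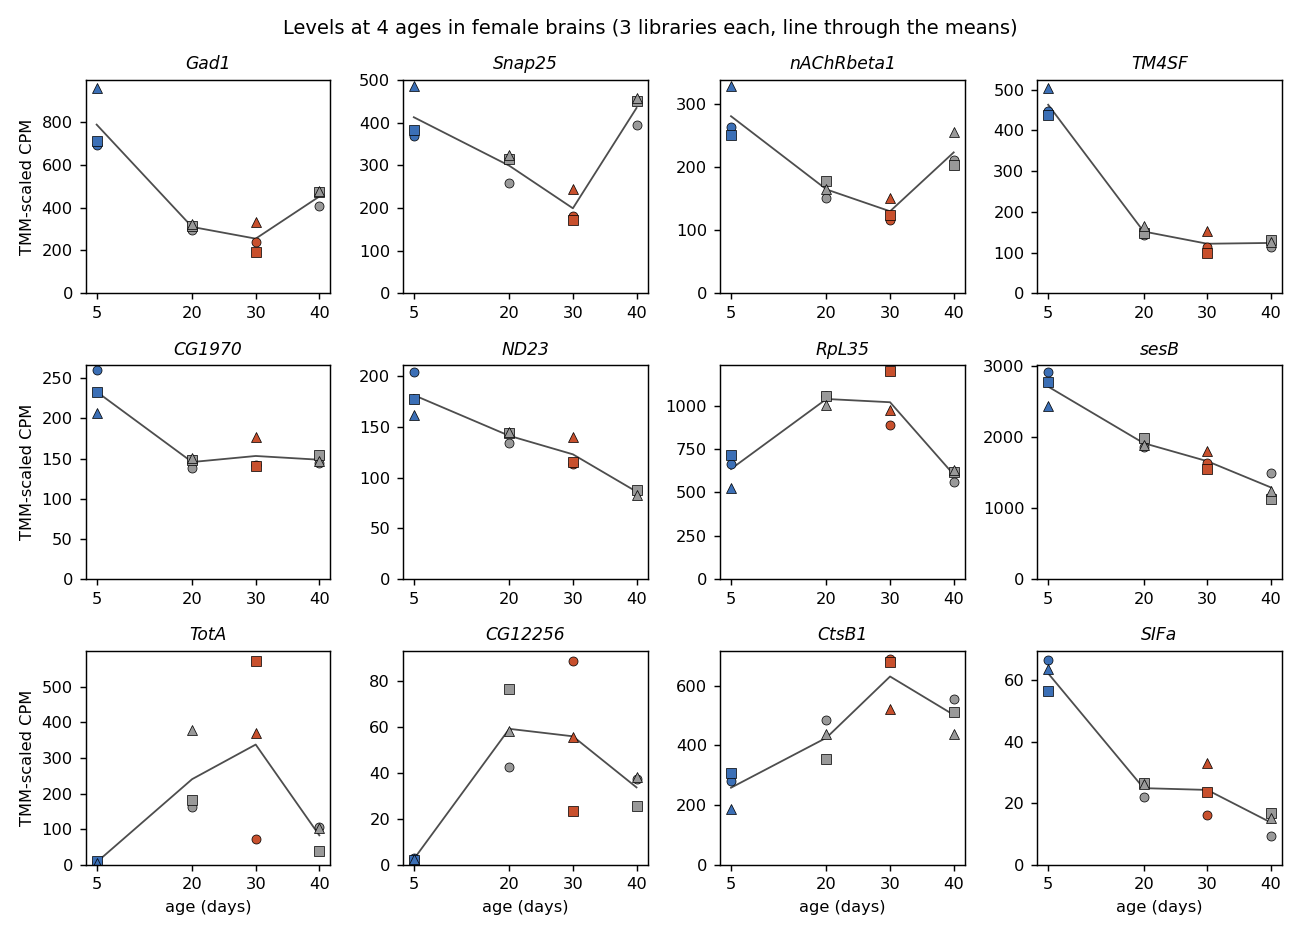
Levels of 12 genes in the 12 female libraries at 5, 20, 30 and 40 days (TMM-scaled CPM; marker shape is the replicate letter, lines join the means of 3). Snap25, Gad1 and nAChRbeta1 have their lowest mean at 30 days, while ND23, sesB and SIFa have it at 40 days.

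The change from 5 to 30 days was also compared with that in males, of which there were 2 libraries at 30 days. No gene of 11332 passed the interaction test in edgeR, 992 (8.75%) had an unadjusted p under 0.05, and 8 passed in DESeq2. For Gad1 the log2 fold change was −1.63 in females and −0.75 in males, with 1032, 1035 and 631 CPM in 5-day-old and 564 and 516 CPM in 30-day-old males, and an interaction of −0.85 (SE 0.32, adjusted p = 0.558). Snap25 had −1.05 in females and −0.04 in males (interaction −0.99, SE 0.33, adjusted p = 0.558). For Sap-r the values were 0.80 and −0.12 (0.95, SE 0.23, adjusted p = 0.558), and for Obp99b 4.40 and −0.99 (5.43, SE 1.34, adjusted p = 0.558). These are the fold changes of the 2 sexes side by side, and with adjusted p of this size they are not shown to differ. In males 5 genes rose and none fell of 10799 tested (0.0463%), and snoRNA:Psi18S-1377a was one of them (2.66, SE 0.24, adjusted p = 0.00602).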

How the data were processed

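RNA was sequenced from pools of 18 brains, and the authors deposited whole-number counts of reads per gene, which were not normalized. Per the submitters' processing notes, reads were trimmed with Trimmomatic 0.35, aligned to dm6 with STAR and counted with HTSeq. The paper states that HTSeq was run in its union mode and that ambiguous reads were not counted. The versions of STAR and HTSeq and the strand setting are not given in the sources used here. Of the gene symbols, 12870 matched the annotation, 4455 matched as older symbols, and 194 unmatched and 2 duplicated ones got no position.

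Counts were analysed in R 4.3.3 with edgeR 4.0.16 (quasi-likelihood, robust, TMM, low counts filtered), over the 12 female libraries, with Benjamini-Hochberg adjustment. A gene changed when it passed a 5% FDR over the 4 ages and for 30 against 5 days. The males joined only the test of the sex difference. The scripts were tested on simulated data. Figures used Python 3.11.15, pandas 2.3.3 and matplotlib 3.10.9.

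The members and the gene lists were chosen with earlier results of these data known. Genes were named by a rule: the 10 largest rises and falls among changed genes with at least 5 CPM and no overlap, the same among genes without a CG or CR number, the 6 most abundant each way, the 4 of smallest p in each list, all of lists of up to 12, and the 5 of smallest p each way in the comparisons of ages and sexes. Genes outside it were chosen after their values were seen: Snap25, Rab3, Csp, unc-13, cpx, Syn, Sap47, Syt4, Syt7, Sytalpha, Rbp, Caps, lap, Dap160, EndoA, Ets21C, VGAT, Rdl, GABA-B-R1, GABA-B-R3, VGlut, GluRIIA, Nmdar1, mAChR-A, Galphas, Pka-R2, scb, Nplp4, beat-IIa, dpr, dpr15, Tsp42Ed, Tsp66E, CG12203, CG7712, RFeSP, CoIV, CoVa, levy, Cyt-c-p, GstD11, RpS7 and 4 small nucleolar RNAs. Nothing in the sources says more of the pools than their letters, so p-values measure the spread between pools. Alternatives were DESeq2 1.42.0, other scalings and filters, thinned counts, covariates, a replicate block, other sets of libraries, and each library left out in turn. Those without the mex1 libraries and without F5B and F5C were chosen after seeing the data.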

Additional observations from a re-analysis of the deposited data

How the results depend on the processing

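No gene called in the text changed direction under these alternatives. Among values that were not called, the log2 fold changes of para, cac and Ace, −0.22, −0.11 and −0.33, were 0.21, 0.20 and 0.02 without F5C, and that of ple, 0.37, was −0.67 without the mex1 libraries. Without F5B and F5C the medians of the antimicrobial, neuropeptide and glial lists, 0.63, −0.17 and −0.14, were −0.33, 0.05 and 0.20, and that of the retina list, 0.04, was −0.74. The extracellular matrix median, 0.14, was −0.20 without F30A, and that of tetraspanins, 0.20, was −0.09 without the mex1 libraries. The medians of the clock, digestive, muscle and ovary lists also changed sign under at least 1 alternative. Of 701 changed genes (195 higher, 506 lower, 144 of them in the lists), DESeq2 gave 1503 (634 and 869, 253), the digestive covariate 197 (61 and 136, 43), the 6 libraries alone 0, the fit without the mex1 libraries 2 (2 and 0, with 0 list genes), that without F5B and F5C 3 (0 and 3, 1), and both sexes in 1 fit 732 (338 and 394). Without the mex1 libraries F30C alone stands for 30 days, and without F5B and F5C, F5A alone stands for 5 days. Those fits lack replicates at 1 age, so their counts cannot be compared with the 701 and no conclusion is drawn from them. With 1 library left out the count lay between 43 and 842, with 22 to 338 higher, 21 to 504 lower and 17 to 137 in the lists. From 30 to 40 days, 694 genes became 1217 in those 6 libraries, 1474 in DESeq2 and 0 to 1378 with 1 library left out. From 20 to 30 days 0 became 66 in DESeq2, and the 0 of the sex difference became 8, while both stayed at 0 with any 1 library left out. Whether the replicate letters pair the samples is not known. Same-letter deviations at 5 and 30 days correlated at −0.415, 0.127 and 0.306, and those of different letters at −0.567 to 0.554. With 3 pools an age these values cannot decide it. A replicate block gave 892 genes (238 higher, 654 lower, 183 in the lists, 638 shared), 848 from 30 to 40 days and 0 for the other comparisons. The depth limit was 12541109 counts in F30A, and with 3 pools an age and marker levels of other tissues that differ between pools, single calls rest on few libraries.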

Other observations

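Some genes outside the lists also differed between the ages, and were chosen after their values were seen. CtsB1, cathepsin B, a lysosomal protease, was at 279.8, 307 and 188 CPM at 5 days and 689.8, 679 and 522 CPM at 30 days (1.29, SE 0.20, adjusted p = 0.00897). The engulfment receptor drpr, with which glia take up neuronal debris, was at 120.3, 105 and 141 and 240.2, 281 and 172 CPM (0.92, SE 0.23, adjusted p = 0.0353), its adaptor ced-6 at 361, 359 and 352 and 476, 445 and 544 CPM (0.45, SE 0.12, adjusted p = 0.0416), and the CD36-type receptor crq at 199, 169 and 163 and 288, 337 and 263 CPM (0.74, SE 0.13, adjusted p = 0.0115). Each had all 30-day libraries above all 5-day ones, as did 13.1% of all genes tested. For genes picked because they passed, such a gap is nearly given. CtsB1 and crq were lost only without F30B (adjusted p = 0.0538 and 0.0673), while drpr passed in 5 and ced-6 in 3 of the 12 fits, and ex on the other strand covers 15.7% of the exon bases of crq. Without the mex1 libraries the log2 fold change was 0.40 for drpr, 0.55 for crq, 0.62 for ced-6 and 1.17 for CtsB1.

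Pvr, a receptor tyrosine kinase related to the PDGF and VEGF receptors, was at 85.3, 85.4 and 76.3 CPM and 244, 219.6 and 131 CPM (1.27, SE 0.21, adjusted p = 0.00915), with F30C lowest of the 30-day pools. The JNK phosphatase puc, itself a target of that pathway, was at 73.1, 62.4 and 72.6 and 98.6, 135 and 111 CPM (0.73, SE 0.16, adjusted p = 0.0229), and the stress-responsive transcription factor Xrp1 at 433, 481 and 359 and 654, 835 and 741 CPM (0.81, SE 0.17, adjusted p = 0.0192). CG5080 was at 158, 141 and 175 CPM and 573, 465 and 454 CPM (1.66, SE 0.15, adjusted p = 0.00187), and fwe, a membrane protein of synaptic vesicles, fell from 339.8, 344 and 389.7 to 177, 169 and 206 CPM (−0.96, SE 0.11, adjusted p = 0.00449). The last 2 passed without any 1 library, Pvr was lost without F30B (0.0567), puc without F5B, F30B or F40B and Xrp1 without F5A, F30B or F40B. roX1, a noncoding RNA of dosage compensation that is characteristic of males, was at 14.1, 16.03 and 18.2 CPM and 26.7, 67.5 and 65.9 CPM (1.73, SE 0.33, adjusted p = 0.0157; 6 of the 12 fits), against 3522, 3509 and 2368 CPM in 5-day-old males.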
